A study of Mus musculus with 6 samples.

Results

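The genes described here are 7 genes of antigen presentation by major histocompatibility complex (MHC) class II: Cd74, H2-Aa, H2-Ab1, H2-Eb1, H2-DMa, H2-DMb1 and Ciita. They were chosen by gene symbol, with earlier results of these data known, and all 7 symbols matched 1 row each among the 27198 genes of the deposited table. RNA was measured in hematopoietic stem cells, or HSCs, from which all blood lineages of the bone marrow are renewed, and the question was how long-term ferulic acid (FA) changes their transcriptome. The data comprised 3 libraries from solvent-treated control mice (Ctrl) and 3 from mice under long-term FA supplementation (l-FA). Both groups were unirradiated wild-type male C57BL/6 mice aged 8 to 10 weeks, and the l-FA group received FA intraperitoneally at 50 mg/kg once a day for 30 days. The sorted cells of both groups were Lineage-, Sca-1+, c-Kit+, CD34- and CD135- (Flk2-). How many mice contributed to each library is not stated in the sources used here, so n counts libraries, and p-values measure only the spread between these libraries, which may be technical.

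MHC class II molecules carry peptides from endosomes to the cell surface, where CD4+ T cells read them. An α chain and a β chain (H2-Aa with H2-Ab1 for I-A, and H2-Eb1 as the β chain of I-E) assemble with the invariant chain Cd74, which blocks the groove until endosomal proteases remove it. H2-DM, made of H2-DMa and H2-DMb1 or H2-DMb2, then exchanges the remaining invariant chain fragment for peptide, and H2-O, made of H2-Oa and H2-Ob, holds H2-DM back. Ciita is the coactivator without which the promoters of these genes are largely silent, and it acts through RFX, CREB and NF-Y proteins bound to the X and Y boxes of each promoter. Dendritic cells, B cells and macrophages are the best known class II cells, and class II RNA is also found in hematopoietic stem and progenitor cells. C57BL/6 mice make no I-E α chain, so that H2-Eb1 RNA in this strain does not lead to I-E at the surface.

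Total counts were 19287735 to 20380610 in Ctrl and 19505689 to 20376031 in l-FA, and 16520 genes had enough counts to be tested. For pairs of libraries within a group, the median chi-square per gene tested was 0.628 to 0.73, against 0.455 for counting error alone, and for a Ctrl library against an l-FA library 2.65 to 2.93. Of 10 HSC marker genes all 10 were detected. Their summed level was 1570 to 1609 CPM (the count scaled to library depth) in Ctrl and 1797 to 1815 in l-FA. Kit made up most of this sum, at 1073, 1082 and 1046 CPM in Ctrl and 1146, 1158 and 1166 in l-FA. By the edgeR test described below, 7 of the 10 were called higher and 1 lower, beside 25.5% and 25.0% of all genes tested. Flt3, which encodes the CD135 that the sort gated out, was present in all 6 libraries at 14232 to 15060 counts in Ctrl and 23834 to 24368 in l-FA, and surface protein was not measured in these files. Counts of amplified cDNA are not independent molecules, so that counting error is only a part of their error.

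The promoter sequences are shown because the class II genes share a spaced pair of boxes that the choice of genes did not use. RefSeq promoters on GRCm38.p6, from 250 bases before to 50 bases after each gene start, were matched for 4 of the 7 genes (H2-Aa, H2-Eb1, H2-DMa and H2-DMb1) and for 4 further class II genes (H2-DMb2, H2-Oa, H2-Ob and H2-Eb2). H2-Ab1, Cd74 and Ciita were not matched. Each window below is written 5′ to 3′ on the strand of its gene, and capitals mark AAC, the last bases of the X box core, and TGATTGG, which holds the Y box. The windows lie at chr17:34287867-34287912 on the minus strand for H2-Aa, at chr17:34305768-34305812 on the plus strand for H2-Eb1 and at chr17:34153089-34153134 on the plus strand for H2-DMb1.
H2-Aa: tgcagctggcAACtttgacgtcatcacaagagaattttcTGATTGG
H2-Eb1: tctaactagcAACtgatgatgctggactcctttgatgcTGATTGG
H2-DMb1: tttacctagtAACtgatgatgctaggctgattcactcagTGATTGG
The plus-strand windows of the 4 further genes lie at chr17:34145118-34145163 (H2-DMb2), chr17:34092295-34092340 (H2-Oa), chr17:34238810-34238852 (H2-Ob) and chr17:34325535-34325579 (H2-Eb2).
H2-DMb2: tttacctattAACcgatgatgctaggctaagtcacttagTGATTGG
H2-Oa: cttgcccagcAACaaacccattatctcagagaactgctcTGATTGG
H2-Ob: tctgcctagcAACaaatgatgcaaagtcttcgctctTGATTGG
H2-Eb2: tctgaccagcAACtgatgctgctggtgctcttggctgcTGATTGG

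The pair was found in 7 of the 8 class II genes with a promoter, and the distance between its boxes was nearly fixed. Among distances of 10 to 40 bases it was 26 bases in H2-Aa, H2-DMb1, H2-DMb2 and H2-Oa, 25 bases in H2-Eb1 and H2-Eb2, and 23 bases in H2-Ob. H2-Oa and H2-Eb1 each held a further AAC, 22 and 32 bases before TGATTGG, which is not shown. In these genes the distance nearest the commonest was kept, so that part of the even spacing comes from this choice. How many of all promoters hold the pair at any distance of 10 to 40 bases was not counted. The Y box ended between 38 and 95 bases before the gene start. Among all 32851 RefSeq promoters, read on the strand of the gene, the pair at 25 or 26 bases occurred in 37 (0.113%), and at 23 bases in 14 (0.0426%). The pair and its spacing were chosen after these promoters had been read, so its presence here is a description. Neither of the 2 starts of H2-DMa held it, which says only that these letters are not in these windows. The windows of H2-DMb1 and H2-DMb2 were identical at 41 of 46 bases.

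**Figure D1:**
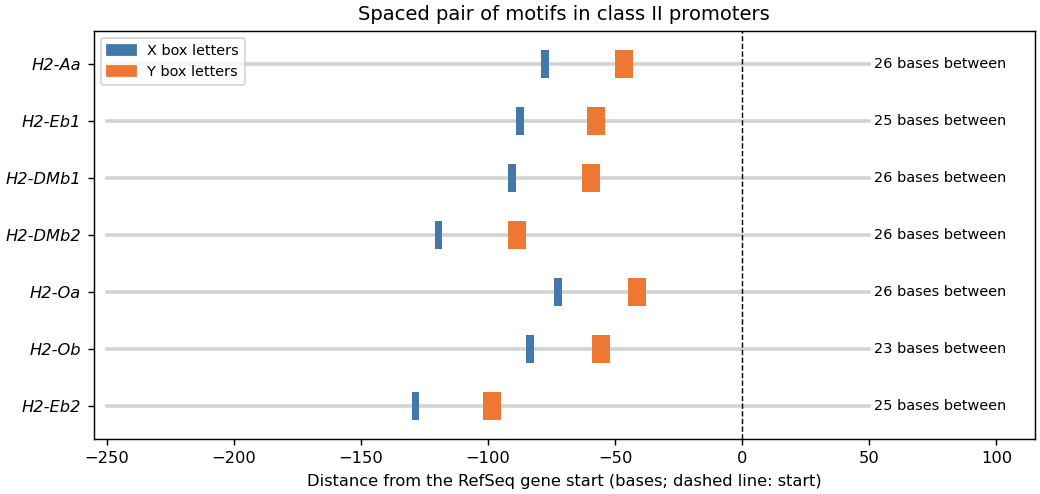
Position of the AAC and TGATTGG pair in 7 class II promoters, with the distance from the gene start in bases on the x axis and 1 row per gene. The pair ends between 38 and 95 bases before the start in every row.

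Shorter motifs were searched on both strands of the same 300-base promoters, and each was in 5.01% to 37.4% of all promoters. These shares do not rank the motifs against the pair, whose letters and spacing were chosen from these promoters. ATTGG, the core of the Y box, was in all 8 class II genes with a promoter (for H2-DMa at 1 of its 2 starts) and in 37.4% of all promoters. AGCAAC, an X box core, was in H2-Eb1, H2-Oa, H2-Ob and H2-Eb2 and in 14.8% of all promoters. A second core, ACAGATG, was in H2-Aa and H2-Oa and in 5.01% of all promoters. The E box CACGTG was in none of the 8 and in 7.15% of all promoters. ATTGG lies inside TGATTGG, so these searches overlap.

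l-FA-treated HSCs contained more RNA of 4 of the 7 genes than Ctrl HSCs did: Ciita at 3.43-fold, H2-DMa at 1.39-fold, Cd74 at 1.29-fold and H2-Aa at 1.21-fold. H2-Ab1, H2-DMb1 and H2-Eb1 did not pass the test. Calls were made with edgeR's quasi-likelihood test on the counts, at an adjusted p under 0.05 over all 16520 genes tested, and all 7 genes passed the low-count filter. Of all genes tested, 25.5% were called higher and 25.0% lower by this rule, so that a call as such is common in this contrast. The fitted change was above 0 for all 7 genes, with a median of 0.36 on the log2 scale against 0.00 over all genes tested. None of the 7 was called lower, at an unadjusted p under 0.05 as well (0 genes), and DESeq2 called 5 higher and 0 lower. With a fold change above 2 in addition, 1 of the 7 genes, Ciita, was called higher, against 6.68% of all genes tested, and 0 were called lower, against 5.10%. In 5 of the 7 genes the l-FA libraries all lay above the Ctrl libraries, which also held for 30.4% of the genes tested. Libraries of the groups did not overlap, in either direction, in 60.3% of the genes tested. In sorted bulk cells, more cells of a type and more RNA per cell cannot be told apart.

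**Figure D2:**
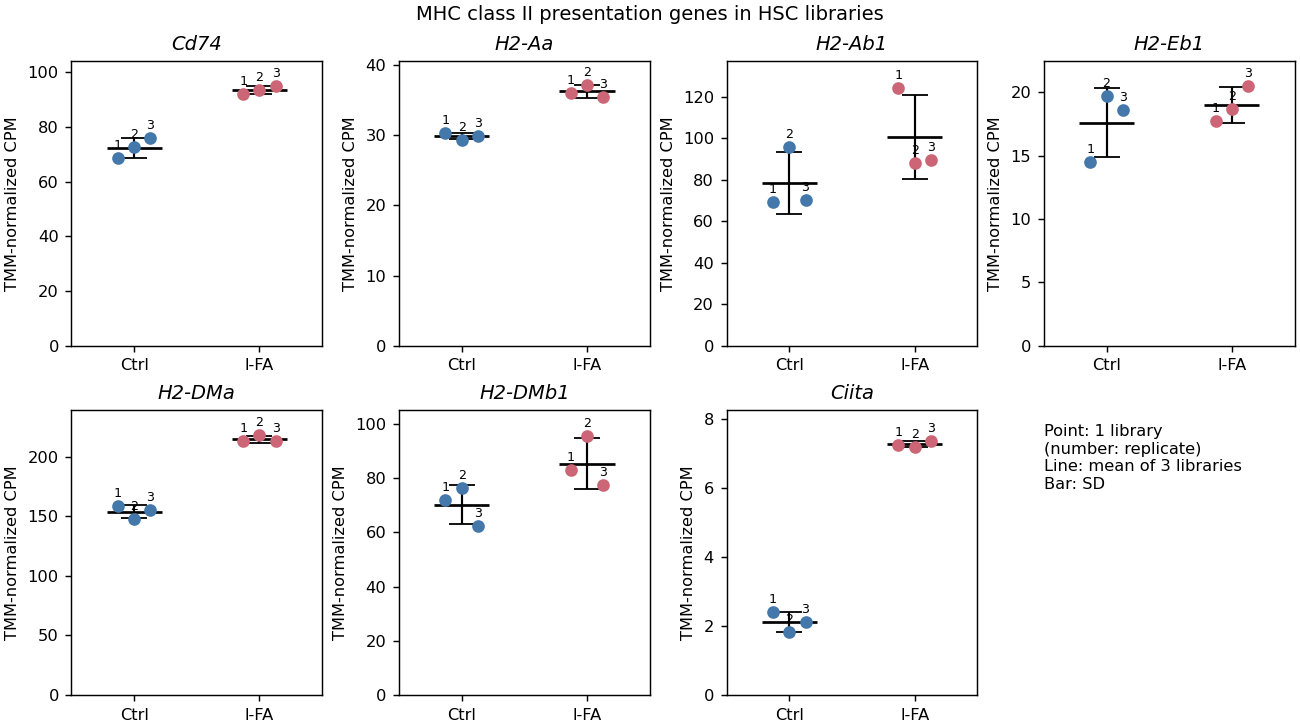
Level of each of the 7 genes in every library, in CPM, with 1 point per library and a bar at the mean of each group (n = 3 libraries a group). The groups overlap for H2-Ab1 and H2-Eb1 and are apart for the other 5 genes.

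Ciita (ENSMUSG00000022504, chr16:10297923-10346282 in the deposited table), the master coactivator of the class II promoters, changed most among the 7. Its counts were 46, 34 and 42 in the Ctrl libraries and 152, 144 and 147 in the l-FA libraries. Every l-FA library was far above every Ctrl library. On the CPM scale Ciita rose from 2.11 ± 0.287 (SD, n = 3) to 7.26 ± 0.0920 (SD, n = 3), or by a log2 fold change of 1.78 (SE 0.13, adjusted p = 9.44e-05 by edgeR). It was called in all 6 fits that left out 1 library, with log2 fold changes of 1.68 to 1.88. Ciita shares 25888 of its 48360 bases with Dexi, whose counts of 33 to 40 in Ctrl and 51 to 61 in l-FA also differed (log2 fold change 0.50, SE 0.15, edgeR adjusted p = 0.0346). The strand setting of the counting is not given in the sources used here.

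Cd74 (ENSMUSG00000024610, chr18:60936920-60945724), the invariant chain and also a surface receptor for the cytokine Mif, was at 68.6, 72.5 and 75.8 CPM in Ctrl and at 91.8, 93.5 and 94.9 CPM in l-FA. The lowest l-FA library stood well above the highest Ctrl library. Cd74 rose by a log2 fold change of 0.37 (SE 0.045, edgeR adjusted p = 7.46e-04), and by 0.33 to 0.40 with any 1 library left out.

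H2-Aa (ENSMUSG00000036594, chr17:34501718-34506797), the α chain of I-A, was at 30.2, 29.3 and 29.9 CPM in Ctrl and at 36.0, 37.1 and 35.4 CPM in l-FA. Both groups were tight and did not overlap. Its log2 fold change was 0.28 (SE 0.046, edgeR adjusted p = 0.00262), with a 95% confidence interval of 0.17 to 0.39. Tested against a 1.2-fold change in place of no change, H2-Aa was not called (adjusted p = 0.359), its own fitted change being 1.21-fold.

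H2-Ab1 (ENSMUSG00000073421, chr17:34476663-34488393), the β chain that pairs with H2-Aa, was at 69.3, 95.6 and 70.2 CPM in Ctrl and at 124, 88.3 and 89.7 CPM in l-FA. Ctrl 2 lay above 2 of the l-FA libraries, and l-FA 1 above all others, so the groups overlapped. The log2 fold change of 0.36 had a 95% confidence interval of -0.06 to 0.78 (edgeR adjusted p = 0.137). Without Ctrl 2 the value was 0.53 and was called (adjusted p = 0.0443), whereas without l-FA 1 or another library it was not. H2-Ab1 thus had a fitted change near that of Cd74 with an SE of 0.18 in place of 0.045.

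H2-Eb1 (ENSMUSG00000060586, chr17:34524841-34535648), the β chain of I-E, was at 14.5, 19.7 and 18.6 CPM in Ctrl and at 17.7, 18.7 and 20.5 CPM in l-FA. The groups overlapped, and Ctrl 1 was the lowest of the 6 libraries. The log2 fold change of 0.11 had a 95% confidence interval of -0.20 to 0.41 (edgeR adjusted p = 0.527) and was -0.02 without Ctrl 1. A rise of the size seen in Cd74 lies inside this interval, so a difference between these genes was not shown.

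H2-DMa (ENSMUSG00000037649, chr17:34338515-34358075), the α chain of the peptide exchange factor H2-DM, was at 159, 148 and 155 CPM in Ctrl and at 213, 218 and 213 CPM in l-FA. The groups were far apart for their spread. H2-DMa rose by a log2 fold change of 0.47 (SE 0.033, edgeR adjusted p = 9.34e-05). It overlaps Brd2 over 3094 of its 19561 bases, and Brd2 counts were 3546 to 3720 in Ctrl and 4484 to 4539 in l-FA (log2 fold change 0.24, SE 0.041, edgeR adjusted p = 0.00320). It also spans Gm50335, at 0 to 4 counts in Ctrl and 17 to 23 in l-FA, against 2769 to 4467 counts of H2-DMa itself.

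H2-DMb1 (ENSMUSG00000079547, chr17:34372046-34379204), a β chain of H2-DM, was at 71.9, 76.5 and 62.5 CPM in Ctrl and at 83.0, 95.7 and 77.4 CPM in l-FA. The lowest l-FA library lay just above the highest Ctrl library, with no overlap. The log2 fold change was 0.28 (SE 0.10, edgeR adjusted p = 0.0590), as large as that of H2-Aa with a wider spread. It was called by DESeq2 (0.28, adjusted p = 0.00990), under upper-quartile scaling (0.30, adjusted p = 0.0421) and without l-FA 3 (0.36, adjusted p = 0.0367). H2-DMb1 is uncertain in a second way, since 369 of the 1629 stretches of 50 bases in its GENCODE M21 transcripts (22.7%) also occur in H2-DMb2, and how the counting divided such reads is not given in the sources used here.

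**Figure D3:**
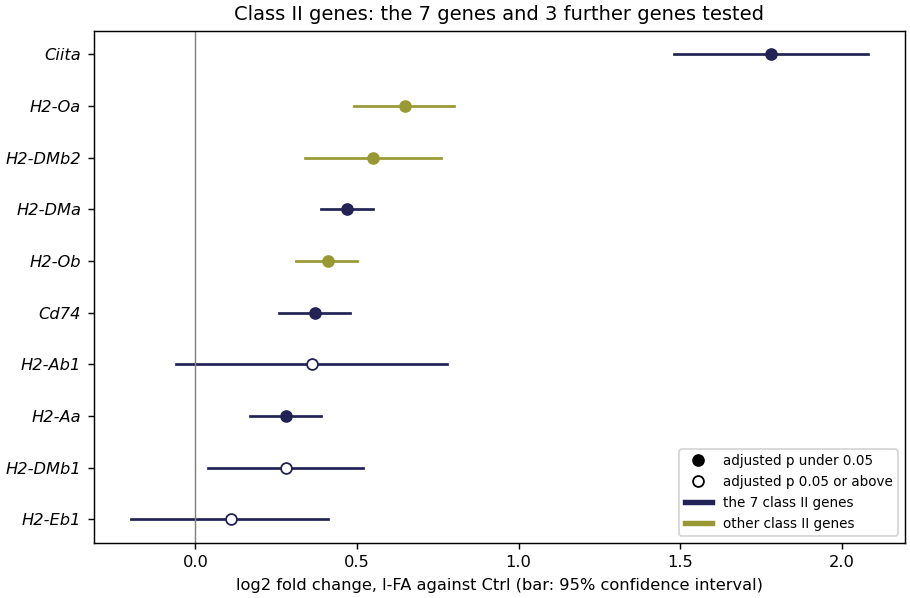
Log2 fold change of l-FA against Ctrl for the 7 genes and 3 further class II genes, with 95% confidence intervals from the edgeR fit (3 libraries a group); filled points have an adjusted p under 0.05. Ciita lies at 1.78 and the others between 0.11 and 0.65, and the intervals of H2-Ab1 and H2-Eb1 include 0.

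The 3 further class II genes that could be tested were all called higher, again beside 25.5% of all genes. H2-Oa, the α chain of H2-O, was at 14.3, 15.9 and 15.2 CPM in Ctrl and at 23.2, 24.0 and 23.9 CPM in l-FA (log2 fold change 0.65, SE 0.065, edgeR adjusted p = 3.41e-04). H2-Ob, its β chain, was at 93.0, 92.6 and 88.3 CPM in Ctrl and at 120, 125 and 118 CPM in l-FA (0.41, SE 0.039, edgeR adjusted p = 2.84e-04). Both chains of the inhibitor thus rose. H2-DMb2, the second β chain of H2-DM, was at 9.43, 10.7 and 9.94 CPM in Ctrl and at 15.8, 13.9 and 14.3 CPM in l-FA (0.55, SE 0.087, edgeR adjusted p = 0.00218). H2-Eb2, a β chain gene next to H2-Eb1, had 0 counts in every Ctrl library and 5, 10 and 8 counts in l-FA. Too low to be tested, it was at least 2.43-fold higher in l-FA when each Ctrl library is set at 3 counts. H2-Ea was not analysed here.

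Levels were compared between genes as FPKM, the authors' values per gene length. In Ctrl the order was H2-DMb1 at 31.3 ± 3.02, Cd74 at 28.9 ± 1.53, H2-DMa at 21.6 ± 0.836, H2-Ab1 at 14.1 ± 2.63, H2-Aa at 6.14 ± 0.116, H2-Eb1 at 4.90 ± 0.766 and Ciita at 0.161 ± 0.0222 FPKM (SD, n = 3). H2-DMb1 and Cd74 overlapped, and each other pair of neighbours was apart in every library. The same order held in l-FA, at 40.2 ± 4.38, 39.4 ± 0.541, 31.7 ± 0.401, 19.2 ± 3.89, 7.88 ± 0.185, 5.57 ± 0.409 and 0.585 ± 0.00724 FPKM (SD, n = 3), again with H2-DMb1 and Cd74 overlapping. Among all genes tested, the 7 genes stood from the 12.2 percentile of level (Ciita) to the 90.8 percentile (H2-DMb1). Among these 7 genes, the chaperone and exchange genes were thus at higher FPKM than the chains that present peptide, and the coactivator was lowest. H2-DMb2, the second β chain of H2-DM and outside the 7, was lower, at 3.38 FPKM in Ctrl and 5.23 in l-FA. The order also depends on the length divisor. In CPM, the mean of H2-Ab1 (78.3 in Ctrl, 101 in l-FA) was above that of Cd74 (72.3 and 93.4). The FPKM scale divides by the length that the authors used, from 2.18 kb for H2-DMb1 to 12.7 kb for Ciita, recovered from the ratio of counts to FPKM.

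**Figure D4:**
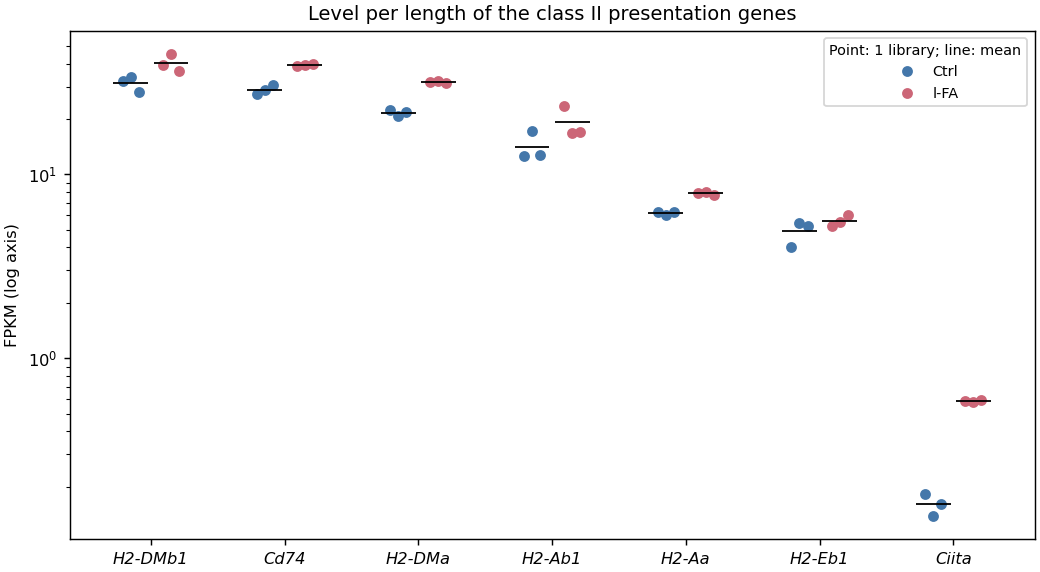
FPKM of the 7 genes in Ctrl and l-FA, on a log axis, with 1 point per library, ordered by the mean in Ctrl. Ciita lies far below the other 6 genes in both groups, at 0.161 FPKM in Ctrl and 0.585 FPKM in l-FA.

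Ratios within a library asked whether genes whose products assemble moved alike. The ratio of H2-Eb1 to H2-Ab1 instead compared the β chain genes of I-E and I-A. The FPKM ratio of H2-Aa to H2-Ab1 was 0.498, 0.350 and 0.487 in Ctrl and 0.333, 0.481 and 0.452 in l-FA, with a log2 difference of -0.08. The ratio of Cd74 to H2-Ab1 was 2.19, 1.68 and 2.39 in Ctrl and 1.64, 2.35 and 2.34 in l-FA, with a log2 difference of 0.01. In both ratios the odd libraries were Ctrl 2 and l-FA 1, the libraries with the highest H2-Ab1 of their groups. The ratio of H2-DMa to H2-DMb1 was 0.695 ± 0.0855 for Ctrl and 0.795 ± 0.0747 for l-FA (SD, n = 3), and that of H2-Eb1 to H2-Ab1 was 0.350 ± 0.0514 and 0.300 ± 0.0702. The groups overlapped in all 4 ratios, with two-sided exact permutation p-values of 0.50, 1.0, 0.200 and 0.600 in this order (0.800 to 1.0 adjusted over the 4). The smallest p that 3 libraries against 3 allow is 0.1, so these tests could not have reached 0.05.

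The factors that bind the X and Y boxes did not move in 1 direction. Of 8 genes tested, 2 were called higher and 3 lower, with a median log2 fold change of -0.17. Such a mix is near that of all genes tested, of which 25.5% were called higher and 25.0% lower. Rfx5, the DNA-binding subunit of RFX, fell from 55.8 ± 2.38 to 39.2 ± 3.10 CPM (SD, n = 3; log2 fold change -0.51, SE 0.069, edgeR adjusted p = 0.00119), while Rfxank, another RFX subunit, rose (0.44, SE 0.097, edgeR adjusted p = 0.00936). The third subunit, Rfxap, was at -0.06 (adjusted p = 0.423). Of the NF-Y genes, Nfya (-0.77, edgeR adjusted p = 0.00429) and Nfyc (-0.29, edgeR adjusted p = 0.00205) fell, and Nfyb was at 0.06 (adjusted p = 0.312). Creb1, which binds the X2 box, was called higher (0.68, SE 0.22, edgeR adjusted p = 0.0376), but in only 3 of the 6 fits with 1 library left out (lost without Ctrl 1, l-FA 1 or l-FA 3, adjusted p of 0.0731 to 0.0935). Atf1 was not called, with 1278, 450 and 1276 counts in l-FA.

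Of 12 genes tested that are known to act on Ciita, 6 were called higher and 2 lower, beside 25.5% and 25.0% of all genes tested. Their median log2 fold change was 0.26 against 0.00 over all genes tested. Irf2, an interferon regulatory factor, rose from 48.2 ± 3.85 to 68.2 ± 6.72 CPM (SD, n = 3; log2 fold change 0.50, SE 0.090, edgeR adjusted p = 0.00377). Usf1, an activator of the Ciita promoter, and the receptor kinase Jak1 rose by 0.27 and 0.25 (edgeR adjusted p = 0.00228 and 2.69e-04). The receptor chain Ifngr1 fell (-0.45, edgeR adjusted p = 5.37e-05), as did Spi1, the myeloid factor PU.1 (-0.38, edgeR adjusted p = 0.00197), and the second receptor chain Ifngr2 was at 0.01 (adjusted p = 0.829). Prdm1, a repressor of Ciita in plasma cells, had 3, 5 and 11 counts in Ctrl and 58, 58 and 40 counts in l-FA, so it rose together with Ciita (log2 fold change 2.94, SE 0.38, edgeR adjusted p = 9.21e-04). Socs1, a feedback inhibitor of this pathway, was called higher (0.34, edgeR adjusted p = 0.0342) but not without Ctrl 1, Ctrl 2 or l-FA 3 (adjusted p of 0.0839 to 0.0950).

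Irf1, Irf8 and Jak2 were not called, and 1 library stood out in the first 2 of them. Irf1, a direct inducer of Ciita, had 921, 932 and 2308 counts in Ctrl and 1640, 1724 and 1706 in l-FA, and its log2 fold change of 0.22 (edgeR adjusted p = 0.622) was 0.76 without Ctrl 3 (adjusted p = 6.00e-04). Irf8 had 3924, 2070 and 4414 counts in Ctrl and 5146, 4343 and 4996 in l-FA (0.41, edgeR adjusted p = 0.210). Jak2 was at -0.24 (edgeR adjusted p = 0.129), and at -0.34 without Ctrl 3 (adjusted p = 0.0309). Pax5, which acts on Ciita in B cells, had 1 count in all 6 libraries together.

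Of the 10 genes of endosomal antigen processing, 3 were called higher and 2 lower, with a median log2 fold change of 0.01. These counts are close to the shares over all genes tested, 25.5% higher and 25.0% lower. Ctss, the cathepsin that trims the invariant chain, rose from 31.1 ± 3.47 to 47.6 ± 2.70 CPM (SD, n = 3; log2 fold change 0.61, SE 0.089, edgeR adjusted p = 0.00159). Sppl2a, which cleaves the last membrane fragment of Cd74, rose by 0.36 (edgeR adjusted p = 5.39e-04), and the asparaginyl endopeptidase Lgmn by 0.38 (edgeR adjusted p = 0.0158). Ctsz and Ctsb, cathepsins of the lysosome, fell (-0.55 and -0.21, edgeR adjusted p = 4.34e-05 and 3.64e-04). Ctsl, Ctsh, Ctsd, Ifi30 and Cst3 did not pass, with log2 fold changes of -0.22 to 0.10, although Ctsd was called without l-FA 1 (0.08, adjusted p = 0.0282).

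Of the 2 class II turnover genes tested, 1 was called in each direction, beside 25.5% of all genes tested called higher and 25.0% lower. Marchf8, a ubiquitin ligase that targets class II and Cd86, fell from 28.9 ± 2.11 to 22.1 ± 0.492 CPM (SD, n = 3; log2 fold change -0.39, SE 0.069, edgeR adjusted p = 0.00358). Cd83, which counters such turnover, was called higher (0.53, SE 0.16, edgeR adjusted p = 0.0309) at only 22 to 39 counts a library, and it was called in 0 of the 6 fits with 1 library left out (adjusted p of 0.0526 to 0.119). Marchf1 had too few counts to test, at 1 to 13.

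Of 3 genes tested from the costimulation list, which also holds the checkpoint ligand Cd274, 2 were called higher, beside 25.5% of all genes tested. Cd86 had 138, 136 and 156 counts in Ctrl and 292, 268 and 304 in l-FA, and the checkpoint ligand Cd274 had 905, 995 and 903 counts in Ctrl and 1326, 1260 and 1330 in l-FA. Both groups were apart for both genes, with log2 fold changes of 0.93 (SE 0.086, edgeR adjusted p = 2.56e-04) and 0.40 (SE 0.068, edgeR adjusted p = 0.00299). Icosl was at 0.05 (adjusted p = 0.710). Cd40 and Cd80 were too low to be tested and lay on opposite sides. Cd40 had 0 counts in every Ctrl library and 4, 8 and 4 in l-FA. With Ctrl set at 3 counts a library, Cd40 was at least 1.69-fold higher in l-FA. Cd80 had 7, 8 and 4 counts in Ctrl and 3, 0 and 2 in l-FA, so it was lower there.

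Of the 5 genes through which Cd74 acts as a receptor, 1 was called higher and 2 lower, beside 25.5% and 25.0% of all genes tested. Their median log2 fold change was -0.17. Mif, its ligand, fell from 121 ± 7.01 to 85.2 ± 3.75 CPM (SD, n = 3; log2 fold change -0.51, SE 0.054, edgeR adjusted p = 4.39e-04), and the coreceptor Cxcr2 fell at 29 to 86 counts a library (-1.04, SE 0.19, edgeR adjusted p = 0.00428). Cd44, the signalling partner, was at 0.08 (edgeR adjusted p = 0.0463), a call kept in 1 of the 6 fits with 1 library left out (without l-FA 1). Ddt, the second ligand, and Cxcr4 were both at -0.17 (adjusted p = 0.0818 and 0.362).

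**Figure D5:**
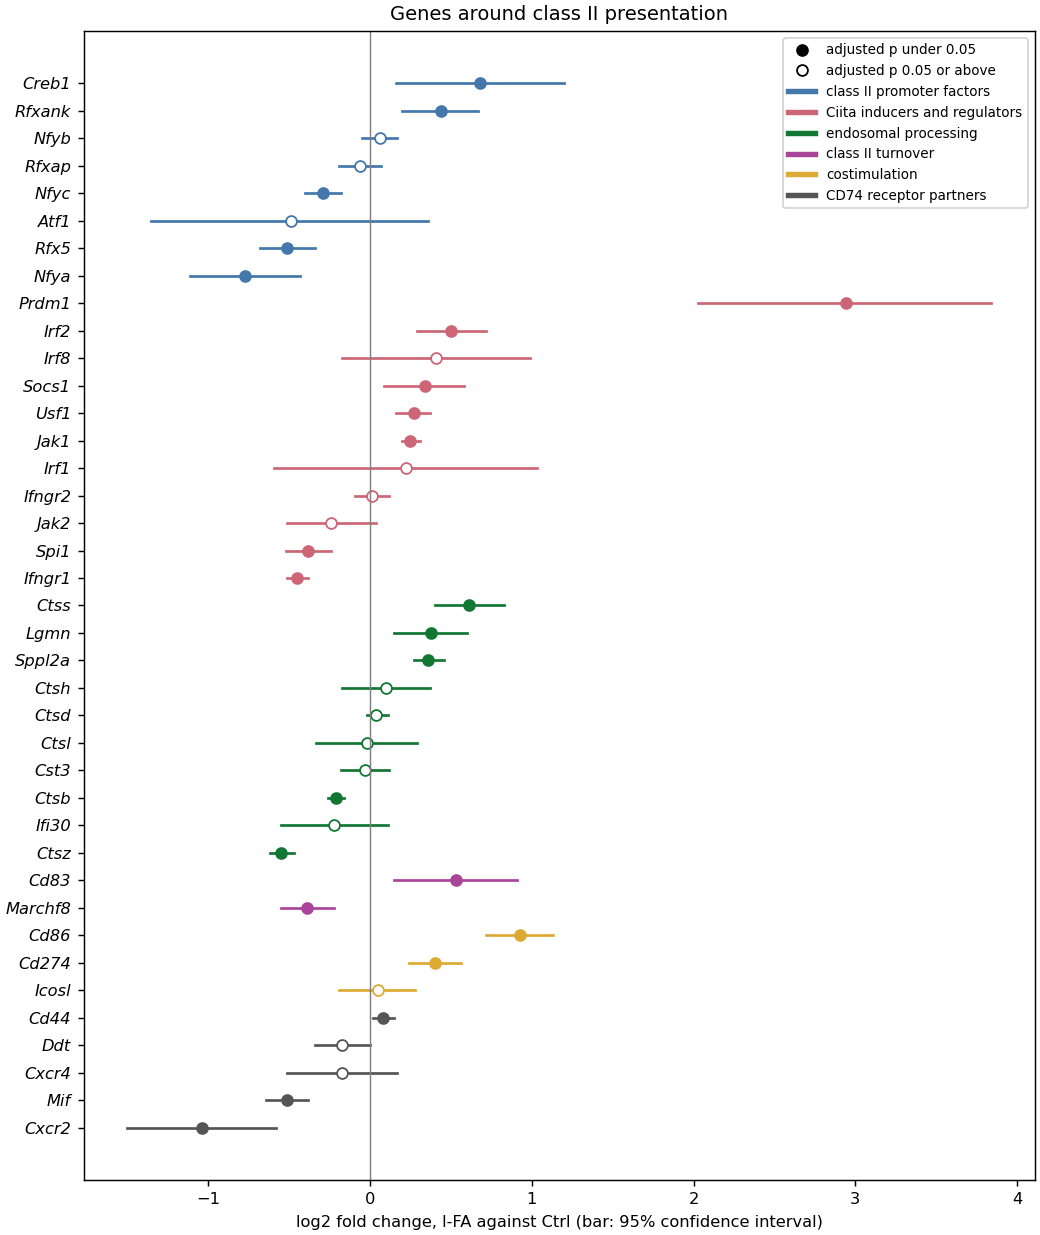
Log2 fold change of l-FA against Ctrl for the reported genes of the other lists of the class II pathway, coloured by list, with 95% confidence intervals (edgeR, 3 libraries a group); filled points have an adjusted p under 0.05. Prdm1 at 2.94 and Cxcr2 at -1.04 are the ends of the range.

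Genes of class II cell types also differed between the groups, and their part in the values above was not tested. The calls counted here stand beside 25.5% of all genes tested called higher and 25.0% called lower. Of 10 B cell markers listed, 9 matched a gene of the deposited table and 6 were tested, with 2 called higher and 1 lower. Their summed level was 63.4 to 65.4 CPM in Ctrl and 76.2 to 78.7 CPM in l-FA, most of it Cd79b. Defining markers were at or near 0: Pax5 had 1 count in all 6 libraries together, and Ms4a1 and Cd22, at 7 to 13 and 20 to 26 counts in Ctrl, were at 0 in every l-FA library. Dendritic cell markers, 10 listed and 7 tested, summed to 771 to 779 CPM in Ctrl and 1186 to 1224 CPM in l-FA, nearly all of it Flt3, with 4 called higher and 1 lower. Without Flt3 (a sum added after the data were seen) they came to 14.7 to 16.3 CPM and 25.8 to 29.7 CPM. Itgax, the CD11c gene, had 51 to 61 counts in Ctrl and 227 to 266 in l-FA (log2 fold change 2.09, SE 0.14, edgeR adjusted p = 7.21e-05), while Xcr1 and Clec9a were at 0 in Ctrl and at 1 to 10 counts in l-FA, and Batf3 had 3 counts in 1 Ctrl library and 0 in the other 5. Zbtb46 and Ccr9 were also called higher (0.64 and 1.03, edgeR adjusted p = 0.0126 and 0.00236), and Siglech was called lower (-1.22, edgeR adjusted p = 0.0139). Monocyte and macrophage markers, 10 listed and 9 tested, summed to 193 to 274 CPM in Ctrl and 143 to 162 CPM in l-FA. The lower sum in l-FA came from Ly6c2, at 160, 77.0 and 161 CPM in Ctrl and 19.7, 32.0 and 31.8 in l-FA. Csf1r, the other large part, was at 83.8, 82.5 and 82.6 CPM in Ctrl and 87.2, 89.1 and 90.5 in l-FA. Csf1r, Ccr2 and C1qb were the 3 called higher, and Ly6c2, Adgre1, Mrc1 and Cx3cr1 the 4 called lower. For comparison, the 7 class II genes themselves summed to 414 to 444 CPM in Ctrl and 538 to 572 CPM in l-FA.

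Over the 6 libraries, the genes most like the mean standardized level of the 7 class II genes included Crot, Gvin1, Cnot8 and Creb3, with Pearson r of 0.997 to 0.999, among 10046 genes with a mean of at least 10 CPM. These 6 points form 2 groups, so that r mainly reflects the difference between Ctrl and l-FA, and it is given as a description. Of these 4, Gvin1, an interferon-inducible GTPase gene, had the largest log2 fold change (0.62), and Crot, Cnot8 and Creb3 were at 0.21, 0.15 and 0.20.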

How the data were processed

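RNA of sorted HSCs was amplified (SMART-Seq HT) and sequenced for 3 Ctrl and 3 l-FA libraries, grouped by their labels. The deposited table holds raw whole-number counts for each gene and, beside them, FPKM values that the authors computed. The submitters' processing notes name GRCm39, HISAT2, SAMtools 1.3.1, StringTie and edgeR. Gene positions are those of the deposited table; promoters are RefSeq on GRCm38.p6, and the builds were not mixed.

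The test was edgeR 4.0.16 under R 4.3.3 (TMM scaling, filterByExpr, glmQLFit and glmQLFTest, Benjamini-Hochberg over 16520 of 27198 genes), and CPM values use the TMM scaling. Code was tested on simulated data. The study's methods use DESeq2 with an adjusted p limit of 0.05 and a 2-fold limit; DESeq2 1.42.0 was an alternative here. Total counts of 19287735 to 20380610 a library set the precision, and 3 counts was the floor for a gene at 0. The alternatives were other scalings, other low-count filters, the replicate block, glmTreat against a 1.2-fold change and each library left out. Genes named are the 7 class II genes, genes of hand-written pathway and marker lists, and the 5 genes most correlated with the 7; 3 genes under this rule are not reported here but stay in the counts. The members and lists were chosen with earlier results of these data known. The labels number replicates alike in both groups without pairing them, and the correlation of deviations of same-numbered libraries was 0.0039, -0.011 and -0.078, so they were not treated as pairs.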

Additional observations from a re-analysis of the deposited data

How the results depend on the processing

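Cd74, H2-DMa and Ciita were called higher under each of the 13 alternatives, with log2 fold changes of 0.33 to 0.40, 0.45 to 0.50 and 1.68 to 1.88. H2-Aa (0.27 to 0.31) was called in 12 and lost against a 1.2-fold change (0.28, adjusted p = 0.359), a stricter null. With 1 library left out, H2-Ab1 ranged from 0.20 to 0.53, H2-Eb1 from -0.02 to 0.19 and H2-DMb1 from 0.20 to 0.36; H2-Eb1 was reversed only without Ctrl 1, and the cause was not tested. H2-DMb1 gained a call with DESeq2 (0.28), the replicate block (0.28, adjusted p = 0.00954) and upper-quartile scaling (0.30). The log2 differences of the ratios ranged, with 1 library left out, from -0.24 to 0.08 for H2-Aa to H2-Ab1 (0.01 without Ctrl 1, 0.08 without l-FA 1), from -0.14 to 0.18 for Cd74 to H2-Ab1 (-0.14 without Ctrl 2, -0.07 without l-FA 2 or l-FA 3), from 0.10 to 0.28 for H2-DMa to H2-DMb1 and from -0.37 to -0.03 for H2-Eb1 to H2-Ab1.

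Counts moved as follows, and the cause was not tested unless a stricter null or another number of genes is the construction. Genes past 2-fold were 516 higher and 414 lower with at least 10 counts in every library, and 1789 and 1546 with no low-count filter. Without the fold limit, the test against a 1.2-fold change left 2435 higher and 2081 lower. Under that test, genes called higher came to 0 promoter factors, 3 Ciita regulators, 0 turnover genes and 0 Cd74 partners, and genes called lower to 1 endosomal and 0 turnover genes. Promoter factors called higher were 1 with no filter, 1 with the replicate block and 1 to 2 with 1 library left out. Turnover genes called higher were 0 with DESeq2, with the replicate block and with any 1 library left out. Cd74 partners called higher were 0 with no filter and with the replicate block, and 0 to 1 with 1 library left out. The replicate block called 1852 genes past 2-fold, of which 1829 were also called without the block. Scaling moved the median of all genes by at most 0.03. Of the 14 FPKM levels, 5 moved by more than 1 SD when recomputed with TMM-scaled depths. Depth limits the values of Ciita, H2-Eb2, Prdm1, Cd40, Cd80, Cd83 and Marchf1, each with at most 46 counts a library in Ctrl.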

Other observations

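Marker genes of other cell types differed between the groups as well, where 25.5% of all genes tested were called higher and 25.0% lower. Neutrophil lineage markers summed to 22753 to 23685 CPM in Ctrl and 5659 to 5975 CPM in l-FA, and 9 of 10 tested were called lower. Mpo, the myeloperoxidase gene, and Elane, the neutrophil elastase gene, made up most of that sum, with Mpo at 353247 to 361023 counts in Ctrl and 99285 to 102016 in l-FA. T and NK cell markers summed to 550 to 572 CPM in Ctrl and 313 to 323 CPM in l-FA, most of it Nkg7. Stromal and endothelial markers summed to 280 to 285 CPM in Ctrl and 353 to 358 CPM in l-FA, mainly Pecam1 and Pdgfrb, with 3 of 7 tested called higher and 1, Vcam1, lower (log2 fold change -1.12, edgeR adjusted p = 4.29e-04). Cxcl12, too low to be tested, had 20, 24 and 10 counts in Ctrl and 5, 3 and 3 in l-FA. Of the 4 T and NK cell markers tested, Cd4 and Trbc2 were called higher, at 31 to 48 and 23 to 30 counts in Ctrl against 137 to 162 and 46 to 61 in l-FA, and Nkg7 and Klrb1c were called lower (log2 fold changes -0.86 and -1.54, edgeR adjusted p = 4.30e-06 and 0.00779). Cd3d and Cd8a, too low to be tested, had 4 to 10 counts in Ctrl and 0 to 2 in l-FA.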
